A study of Macaca fascicularis with 2 samples.

Results

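Premeiotic germ cells of the fetal monkey ovary were picked out by 5 genes: ZGLP1, REC8, STRA8, RFX6 and ESX1. A cell was included when it held at least 3 UMIs over these genes, at least 2 of the 5 were detected and their sum reached 2 per 10000 UMIs. A UMI is a molecular barcode that marks 1 captured RNA molecule. The cell also needed at least 1 UMI of the germ cell genes DAZL or DDX4. The synaptonemal complex genes SYCE3, SYCP1, SYCP2 and SYCP3 had to sum to below 20, and the oocyte genes GDF9, ZAR1 and ASTL to below 5, per 10000 UMIs. These criteria were met by 795 of 20967 cells, a share of 3.79% with an exact 95% binomial interval of 3.54 to 4.06%.

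The cells came from whole ovaries of Macaca fascicularis, the cynomolgus monkey. One fetus was taken at E84 and another at E116, with the pair of ovaries of each fetus pooled in a single 10x library after enzymatic digestion. The animals carried no genetic change or treatment that the labels name. Barcodes end in 1 or 2 and nothing maps an ending to a stage, so all cells were treated as 1 pooled sample and no value is given by stage. The endings served only as technical batches of unknown origin. Each stage had 1 library and no replicate, so no test was made, and each interval covers counting error only and not the difference between animals.

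Germ cells of the fetal ovary first divide as mitotic cells that still express primordial germ cell and pluripotency genes. They then switch these genes off, replicate their DNA a last time before meiosis and enter prophase, in which homologous chromosomes pair and recombine. Retinoic acid and bone morphogenetic proteins (BMPs) are the signals best known to promote this step. ZGLP1 is a zinc finger regulator of oogenic fate that acts with BMP signaling, and STRA8 is a retinoic acid-responsive gene required for meiotic entry. REC8 encodes the meiotic kleisin, the subunit that closes the cohesin ring, and RFX6 and ESX1 encode transcription factors.

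The premeiotic cells were set beside 304 mitotic germ cells and 1139 early meiotic germ cells of the same libraries. Mitotic cells met the same criteria with NANOG, TFAP2C, SOX15, SOX17 and LIN28A in place of the 5 genes, and were not premeiotic cells. Early meiotic cells reached at least 20 synaptonemal UMIs per 10000, had a UMI of DAZL or DDX4 and none of the oocyte gene FIGLA, and had oocyte genes below 5 per 10000. The marker rule of mitotic cells was also met by 34 premeiotic cells (19 and 15 by ending), which were counted as premeiotic. A further 14590 cells had no UMI of DAZL or DDX4 and gave the level outside recognizable germ cells. All groups were defined from measured RNA, so every comparison is a description of groups that were drawn to differ.

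Premeiotic cells were deep. Their median was 14977 UMIs (range 935 to 106139) and 4288 genes, and 633 of them had over 3000 genes. The median was 15309.5 UMIs in mitotic cells, 2307 in early meiotic cells and 3756 in all cells. The need for at least 3 UMIs of the marker genes favors deep cells, and the part of depth in the results was not tested. Barcodes ending in 1 gave 507 premeiotic cells, 4.77% of that set (4.38 to 5.20%), and those ending in 2 gave 288, or 2.78% (2.48 to 3.12%). Only 11 mitotic cells had barcodes ending in 2, so a 2-fold difference from mitotic cells was checked within ending 1 only. The pooled levels and ratios use both endings. They thus set premeiotic cells of both endings against mitotic cells almost all of ending 1. Mitochondrial UMIs took a median of 12.002% in premeiotic cells and 7.55% in mitotic cells. The 2 sets shared 27 barcode sequences, and 6 premeiotic cells carried one of them.

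Markers of other ovarian cells were present below their levels in cells without DAZL or DDX4, and their part in the results was not tested. All 8 stroma markers had UMIs in premeiotic cells and summed to 563 UMIs per 1000000 UMIs of the group (CPM; 594 and 526 by ending), against 814 in mitotic cells, 661 in early meiotic cells and 7616 in cells without DAZL or DDX4. All 7 granulosa markers were also found, at 228 CPM (215 and 244), against 240.4, 131 and 833. Endothelial markers came to 14.7, with CLDN5 at 0, and macrophage markers to 4.95 CPM. The 3 epithelium markers in the table summed to 180 CPM (149 and 218), against 135, 86.4 and 463 in the same order, so among the pooled germ cell groups they were highest in premeiotic cells. The erythroid sum was 396 CPM, almost all from HBB, and differed between endings at 694 and 39.1. In 402 premeiotic cells the somatic markers reached 5 UMIs per 10000, and results were also computed on the 393 cells below that level. The same limit then applied to the mitotic and early meiotic cells, of which 113 and 250 remained.

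The 5 marker genes chose the cells, so their levels are a description. Levels are given in CPM, with exact 95% Poisson intervals in parentheses. ZGLP1 was highest at 181 CPM (174 to 188), with 176 and 187 by ending. RFX6 followed at 138 (132 to 144), from 61.4 in ending 1 and 229 in ending 2. REC8 was at 127 (122 to 133), ESX1 at 71.3 (67.0 to 75.8) and STRA8 at 48.5 (44.9 to 52.2). Counts of 3′ UMIs do not scale with transcript length. RFX6 and REC8 had overlapping intervals in this order, whereas the other neighbors were apart. RFX6 was the 1 marker gene whose level differed by more than 2-fold between the endings.

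Outside the premeiotic cells the same genes were low but not absent. ZGLP1 stood at 11.6 CPM in mitotic cells, 14.3 in early meiotic cells and 5.22 in cells without DAZL or DDX4. REC8 was at 6.34, 53.8 and 4.34 in the same order, and ESX1 at 3.62, 27.4 and 2.15. REC8 and ESX1 thus kept a larger part of their level in early meiotic cells than ZGLP1, which is a description, since the marker sum chose the premeiotic cells. A further 69 cells met all premeiotic criteria except the synaptonemal limit, with a median marker sum of 5.23 per 10000. Those of them without a FIGLA UMI count as early meiotic cells, and their part in these levels was not tested.

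**Figure D1:**
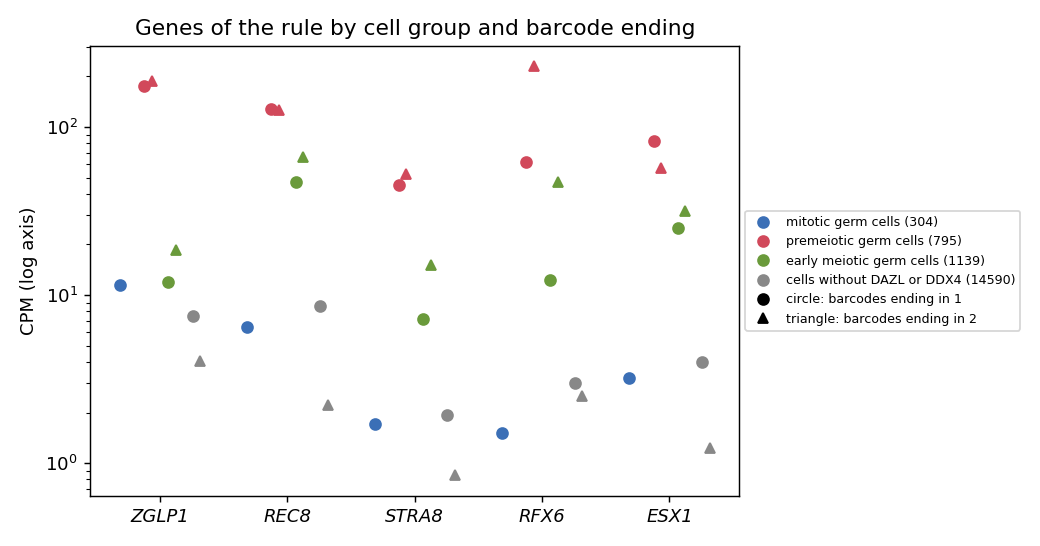
The 5 marker genes are plotted in CPM on a log axis for premeiotic, mitotic and early meiotic germ cells and for cells without DAZL or DDX4, with circles for barcodes ending in 1 and triangles for those ending in 2 (not drawn for the 11 mitotic cells of ending 2). Premeiotic cells lie highest for every gene, and RFX6 stands apart by its gap between 61.4 and 229.

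Single cells carried the markers in varied combinations. Of the 795 cells, 173 had 2 of the genes, 269 had 3, 217 had 4 and 136 had all 5. ZGLP1 was detected in 85.7% of cells, REC8 in 76.6%, RFX6 in 66.8%, ESX1 in 61.3% and STRA8 in 49.4%. ZGLP1 and REC8 were found together in 507 cells (63.8%), and ZGLP1 and STRA8 in 341 (42.9%). The marker sum per cell ran from 3 to 57 UMIs with a median of 7. STRA8 was the single leading gene in 14 cells only, whereas ZGLP1 led in 276, REC8 in 147, RFX6 in 134 and ESX1 in 66, with ties in 158. RFX6-led cells were mostly of ending 2 (108, against 26), and ESX1-led cells mostly of ending 1 (59, against 7).

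The thresholds cut through continuous values. At the edge of the UMI criterion, 93 cells had exactly 3 marker UMIs, and 107 cells that met the other criteria had exactly 2. Their median DAZL plus DDX4 levels were 5.87 and 6.43 per 10000. The excluded cells were shallower, with a median of 3318 UMIs against 5929. Their median somatic marker level was higher, at 13.1 against 7.82 per 10000. At the upper edge, 42 cells had 15 to 20 synaptonemal UMIs per 10000 and 21 excluded cells had 20 to 25, with marker sums of 5.51 and 6.38 per 10000. The DAZL or DDX4 criterion left 51 cells with exactly 1 UMI and excluded 46 with none. The oocyte criterion excluded 1 cell.

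Against mitotic cells, genes of the primordial germ cell state were lower in premeiotic cells, while cell cycle genes and a first set of meiotic genes were higher. A gene is called higher or lower here when the pooled levels, and those of each ending with 20 or more cells of both groups, were at least 2-fold apart in the same direction, with 20 or more UMIs in the higher group. Of 12369 genes compared, 13.4% were called higher and 7.06% lower, and the median log2 ratio was 0.19. Against early meiotic cells, 9.78% of 12419 genes were called higher and 8.55% lower, with a median of 0.14. The counts of each gene list below are to be read beside these shares.

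Of the primordial germ cell and pluripotency list, 15 of 23 genes compared were lower than in mitotic cells and none was higher, with a median log2 ratio of -2.27. The list holds the 5 genes that chose the mitotic cells, so their share of this count follows from the choice. DPPA4, a chromatin-associated pluripotency factor that chose no cells, was at 55.9 CPM (52.1 to 59.9) in premeiotic and 269 (255 to 283) in mitotic cells, a log2 ratio of -2.27 (-2.39 to -2.14). PDPN, a surface glycoprotein of early germ cells, was at 19.2 and 152, and PRDM1, a repressor of somatic genes in germ cell specification, at 10.8 and 56.1. DPPA4 was still above its level in cells without DAZL or DDX4 (3.87), whereas PDPN was below it (34.8). KIT, the receptor for KIT ligand, was at 87.7 CPM (82.9 to 92.7) against 92.0 (84.2 to 100.4), a log2 ratio of -0.07 (-0.22 to 0.08).

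The same list stood the other way against early meiotic cells. There 11 of 22 genes compared were higher and 1 was lower, with a median log2 ratio of 1.51. KIT was 87.7 against 17.9 CPM, a log2 ratio of 2.29 (2.00 to 2.59), and DPPA4 was 55.9 against 20.5, a log2 ratio of 1.44. L1TD1, an RNA-binding protein of pluripotent cells, was at 83.3 against 19.8 and SALL4, a zinc finger factor, at 13.7 against 3.28. The exception was DPPA5, at 6.96 in premeiotic, 6.52 in mitotic and 68.5 CPM in early meiotic cells. Levels of KIT, L1TD1 and SALL4 were at least 2-fold above the early meiotic level within both endings.

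NANOG, the pluripotency factor, remained detectable in a part of the premeiotic cells. Its level was 17.6 CPM (15.5 to 19.9), with 11.1 and 25.4 by ending, against 195 in mitotic, 4.14 in early meiotic and 1.86 in cells without DAZL or DDX4. A NANOG UMI was found in 174 premeiotic cells, or 21.9% (19.1 to 24.9%), at 14.6% in ending 1 and 34.7% in ending 2. The share was 89.8% in mitotic cells, whose selection used NANOG, 1.40% in early meiotic cells and 0.733% in cells without DAZL or DDX4, at median depths of 15309.5, 2307 and 3232.5 UMIs. After each cell was thinned to 3000 UMIs, which left out 29 premeiotic cells, the shares were 4.31% (2.98 to 5.997%), 46.0%, 0.426% and 0.272% in the same order. The premeiotic share lay above that of cells without DAZL or DDX4 at either depth.

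ZGLP1 and NANOG were also counted together in single cells. Among the 4495 germ cells below the synaptonemal and oocyte limits, the overlap of cells with 2 or more UMIs of each gene differed between endings. In ending 1, 18 cells had both, 227 had NANOG alone and 390 had ZGLP1 alone, so 7.35% of NANOG cells also had ZGLP1. In ending 2, 35 cells had both, 9 had NANOG alone and 184 had ZGLP1 alone, or 79.5% of the NANOG cells and 16.0% of the ZGLP1 cells. The overlap depended on the cut. With 1 or more UMIs of each gene, 137 of 431 NANOG cells of ending 1 (31.8%) and 101 of 134 of ending 2 (75.4%) also had ZGLP1.

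**Figure D2:**
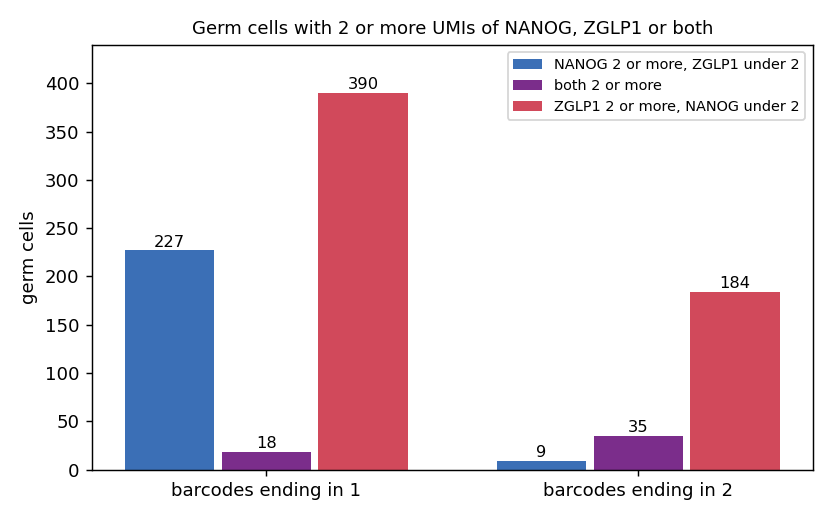
Bars give the number of germ cells with 2 or more UMIs of NANOG, of ZGLP1 or of both, for each barcode ending. In ending 1 the NANOG cells were mostly without ZGLP1 (227 of 245), and in ending 2 mostly with it (35 of 44). At 1 or more UMIs the share with ZGLP1 was 31.8% in ending 1 and 75.4% in ending 2.

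The 44 premeiotic cells with 2 or more NANOG UMIs (8 and 36 by ending) were deep, with a median of 33004 UMIs against 13790.0 in the 621 cells with none. Most were of ending 2, so pooled values mix the endings. TFAP2C, an AP-2 factor of germ cell specification, was at 4.49 CPM from 7 UMIs, against 3.55 in cells without a NANOG UMI and 112 in mitotic cells. SOX15 was at 4.49 and 3.66, and DPPA4 at 45.5 and 55.5. The meiotic cohesin gene SMC1B was at 659 and 682, and ZGLP1 at 188 and 181. RFX6 was at 291 (263 to 321) against 209.8 (195 to 226) within ending 2, and at 54.8 (26.3 to 100.8) against 60.8 within ending 1. TFAP2C within ending 1 was at 21.9 (5.97 to 56.1) from 4 UMIs in 8 cells, against 4.398 (2.92 to 6.36), and within ending 2 at 2.18 against 2.01. The TFAP2C level of the 8 cells of ending 1 was thus higher, but its wide interval overlapped that of the cells without NANOG. All values stayed below the mitotic level of TFAP2C. That level follows from the choice of cells, since TFAP2C and SOX15 were among the genes that chose the mitotic cells.

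Several genes of the retinoic acid pathway were highest in the premeiotic cells. Of this list, 5 of 18 genes compared were higher and 2 lower than in mitotic cells (median log2 ratio 0.39), and 10 of 17 were higher and none lower than in early meiotic cells (median 1.68). CYP26A1, the enzyme that degrades retinoic acid and is itself induced by it, was at 169 CPM (162 to 176), with 167 and 171 by ending. It was at 33.0 (28.3 to 38.1) in mitotic and 47.1 (41.7 to 53.0) in early meiotic cells, log2 ratios of 2.36 (2.14 to 2.58) and 1.84 (1.66 to 2.03). In cells without DAZL or DDX4 it was at 5.17. CYP26A1 was thus alike in both endings of the premeiotic cells and low in cells without DAZL or DDX4.

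Among the receptors, RARB was at 73.5 CPM against 15.03 in mitotic and 21.6 in early meiotic cells, and RARG at 13.4 against 2.72 and 3.62. RARA was at 35.5, against 18.1 and 10.2, of which only the early meiotic ratio was called. By ending, RARB was at 54.9 and 95.7 in premeiotic cells and at 9.09 and 44.3 in early meiotic cells, so its ratio was smaller in ending 2. A RARB UMI was found in 7 of the 11 mitotic cells of ending 2 (63.6%) and in 69.1% of premeiotic cells there. Their median depths were 23689 and 18274 UMIs. In ending 1 the shares were 19.5% of mitotic and 49.5% of premeiotic cells. The cellular retinoic acid-binding proteins ran in opposite directions. CRABP1 was at 212 CPM in mitotic and 9.40 in premeiotic cells, a log2 ratio of -4.50 (-4.76 to -4.24) and of -3.81 within ending 1, and CRABP2 at 5.25 and 41.3, a log2 ratio of 2.98 (2.44 to 3.57). CRABP2 was at 18.5 in cells without DAZL or DDX4, and its log2 ratio over early meiotic cells was 1.36 within ending 1 and 4.79 within ending 2. In the cells with few somatic marker UMIs, 393 premeiotic and 113 mitotic, its log2 ratio over mitotic cells was 5.40.

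Genes of the BMP pathway were called mainly against early meiotic cells. Of 20 genes compared, 3 were higher and none lower than in mitotic cells (median log2 ratio 0.36), a share near that of all genes, and 8 were higher and none lower than in early meiotic cells (median 0.91). The ID genes encode inhibitors of basic helix-loop-helix factors and are direct targets of BMP signals. ID3 was at 279.9 CPM (271 to 289), with 274 and 287 by ending, against 58.7 in mitotic and 65.0 in early meiotic cells, log2 ratios of 2.25 and 2.11. In the 11 mitotic cells of ending 2, however, ID3 was at 259, close to the premeiotic level. ID1 was at 234 against 282 in mitotic and 58.0 in early meiotic cells, and ID2 at 269.5 against 290.1 and 94.0. ID3 thus stood above both groups, whereas ID1 and ID2 were called only against early meiotic cells. The levels of ID3 (288) and ID2 (842) in cells without DAZL or DDX4 were as high as or higher than in premeiotic cells.

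Of the list of meiotic entry regulators, which leaves out the marker genes, 4 of 16 genes compared were higher and 1 was lower than in mitotic cells, and 1 of 15 was higher and 4 lower than in early meiotic cells. MSX1, a homeobox factor tied to BMP signaling and meiotic entry, was at 95.5 CPM (90.5 to 101) against 12.3 (9.56 to 15.6) and 38.6, with 50.1 in the 11 mitotic cells of ending 2. MEIOC, which stabilizes the meiotic program, was at 60.5 against 13.9 and 356. RBM46, a germ cell RNA-binding protein, was at 379 against 172 and 492. CCNB3, a meiotic cyclin, was at 67.0 against 19.9 and 243, but differed between endings (98.2 and 29.6). DMRT1, a regulator of the switch from mitosis to meiosis, was at 85.4 against 50.0 and 17.6. MEIOC, RBM46 and CCNB3 thus lay between the mitotic and early meiotic levels, and DMRT1 and MSX1 above both. DMRT1 was not called against mitotic cells, however, and MSX1 was not called against early meiotic cells.

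Cohesin genes of the meiotic type were higher than in mitotic cells. In this list, 6 of 18 genes compared were higher and 1 was lower than in mitotic cells (median log2 ratio 0.57), and 1 was higher and 4 were lower than in early meiotic cells (median -0.59). SMC1B, the meiotic SMC subunit, was at 658 CPM (644 to 671), with 623 and 699 by ending, against 52.5 in mitotic and 2035 in early meiotic cells. Its log2 ratios were 3.65 (3.48 to 3.82) and -1.63 (-1.67 to -1.59). STAG3, the meiotic STAG subunit, was at 171 against 27.5 and 243. RAD21L1, the other meiotic kleisin, was at 8.29 against 4.71 and 69.9, which was called only against early meiotic cells. SMC1B and STAG3 were already many times above the mitotic level, whereas RAD21L1 was not.

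The mitotic counterparts took another course. RAD21, the kleisin of mitotic cohesin, was at 361 CPM in premeiotic, 275 in mitotic and 140 in early meiotic cells, and STAG2 was lower than in mitotic cells at 68.5 against 148. SGO2, a protector of centromeric cohesin, was at 103 against 23.4 and 214, and ESCO2, which acetylates cohesin in S phase, at 138 against 38.0 and 422.

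The chromosome axis list showed the same intermediate position. Of 8 genes compared, 5 were higher and none lower than in mitotic cells (median log2 ratio 1.44), and 8 of 9 were lower and none higher than in early meiotic cells (median -2.31). The early meiotic group was chosen by 4 synaptonemal complex genes that belong to the same structures, so the latter count is close to the choice. HORMAD1, an axis protein, was at 93.5 CPM (88.5 to 98.6), with 87.7 and 100.3 by ending, against 12.3 in mitotic and 453 in early meiotic cells. TEX12, a central element protein, was at 49.0 (32.1 and 69.2 by ending) against 12.9 and 590.0. HORMAD2 was not above the mitotic level, at 2.16 against 2.35 and 74.5. In the 11 mitotic cells of ending 2, HORMAD1 was at 46.0 and TEX12 at 75.2, so TEX12 was not above them there.

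Genes of break formation and recombination divided in the same way. Of 33 genes compared, 16 were higher and none lower than in mitotic cells (median log2 ratio 1.02), and of 35, 20 were lower and none higher than in early meiotic cells (median -1.83). Genes already above the mitotic level included TEX11, a meiotic crossover factor, at 131 CPM against 29.0 in mitotic and 313 in early meiotic cells. ZCWPW1, a histone reader that acts at recombination sites, was at 250.2 against 76.8 and 1309.6. REC114, a partner of the break machinery, was at 39.0 against 4.35 and 107, with 18.9 and 63.1 by ending.

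Other genes of this list were far below the early meiotic level. SPO11, the break-forming enzyme, had 14 UMIs in all premeiotic cells, or 0.975 CPM (0.533 to 1.64), against 101 in early meiotic cells, a log2 ratio of -6.70 (-7.58 to -5.94). It was at 2.33 in cells without DAZL or DDX4 and had 0 UMIs in mitotic cells. PRDM9, the histone methyltransferase that sets break sites, was at 0.627 from 9 UMIs against 37.8 in early meiotic cells and 0.805 in cells without DAZL or DDX4, and RAD51AP2 at 35.0 against 2876, beside 38.9 in mitotic cells. DMC1, the meiotic strand-exchange protein, was at 4.88 CPM against 0.724 in mitotic cells (4 UMIs) and 67.8 in early meiotic cells. RAD51AP2 was at 63.5 CPM in cells without DAZL or DDX4. SPO11, PRDM9 and RAD51AP2 were thus not above the level in cells without DAZL or DDX4. An SMC1B UMI was found in 14.8% of those cells, and germ cells or free germ cell RNA among them were not excluded. DMC1 was above the mitotic level but far below the early meiotic one.

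**Figure D3:**
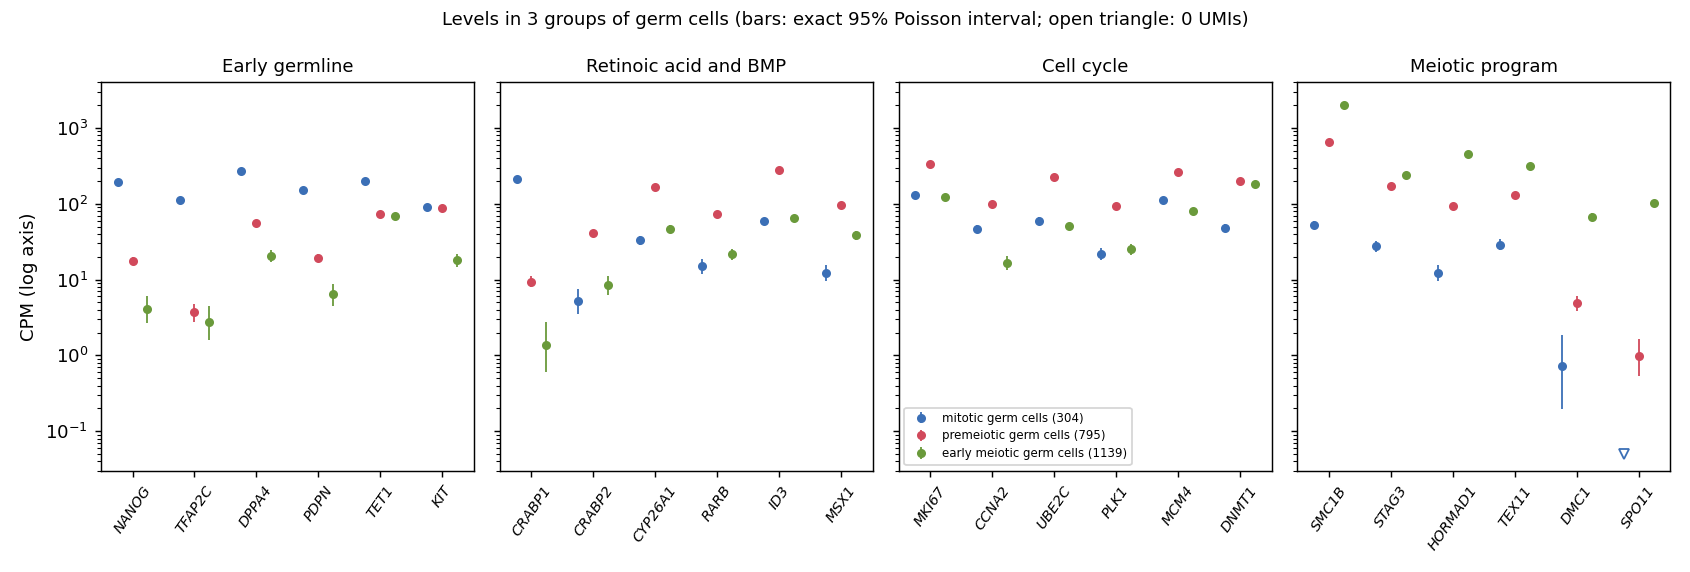
Levels in CPM on a log axis are plotted for 24 genes in 4 panels for mitotic, premeiotic and early meiotic germ cells, with exact 95% Poisson intervals as bars and an open triangle for 0 UMIs. CYP26A1, RARB and CRABP2 are highest in premeiotic cells (169, 73.5 and 41.3), while SMC1B, HORMAD1 and DMC1 step up from mitotic over premeiotic to early meiotic cells.

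Cell cycle genes were higher than in mitotic cells. Of the S phase list, 17 of 29 genes compared were higher and none lower (median log2 ratio 1.21), and of the mitosis list 19 of 28 were higher and none lower (median 1.32). Against early meiotic cells, 2 S phase genes were higher and 3 lower (median 0.01), and 6 mitosis genes were higher and none lower (median 0.23). MCM4, a subunit of the replicative helicase, was at 263 CPM (255 to 272), with 276 and 248 by ending, against 111 in mitotic and 80.2 in early meiotic cells. PLK1, a mitotic kinase, was at 93.7 against 21.9 and 25.4, and UBE2C, a ubiquitin-conjugating enzyme of the anaphase-promoting complex, at 228 against 59.8 and 50.2. MCM4, PLK1 and UBE2C were called higher than both groups. The cells named mitotic by their markers thus had less RNA of these cycle genes than the premeiotic cells.

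MKI67, a proliferation marker, was at 331 CPM (381 and 272 by ending) against 130.0 and 125. CCNA2, the cyclin of S phase and mitosis, was at 99.7 against 46.5 and 16.7. Some genes of replication onset were instead highest in early meiotic cells. CDC45 was at 37.1 against 9.23 in mitotic and 120.0 in early meiotic cells, and CCNE2, an E-type cyclin, at 28.4 against 12.3 and 155. Of the cyclins and cell cycle inhibitors, 4 of 17 genes compared were higher and 1 was lower than in mitotic cells, and 4 were higher and none lower than in early meiotic cells. The inhibitor CDKN2D was at 132 against 26.3 and 121, and the kinase WEE1 at 47.6 against 13.9 and 48.8.

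DNA methylation and chromatin genes were called at shares near those of all genes against mitotic cells. Of 21 compared, 3 (14.3%) were higher and 2 (9.52%) lower, beside 13.4% and 7.06% of all genes. Against early meiotic cells, 1 (4.76%) was higher and 3 (14.3%) lower, beside 9.78% and 8.55%. DNMT1, the maintenance methyltransferase, was at 198 CPM (191 to 206), with 221 and 172 by ending, against 47.8 in mitotic and 182 in early meiotic cells, and its log2 ratio over mitotic cells was 2.05 (1.87 to 2.24). UHRF1, which brings DNMT1 to replicated DNA and was counted in the S phase list, was at 44.5 against 10.9 and 17.6. TET1, which oxidizes methylcytosine, was at 72.9 against 202 in mitotic cells, a log2 ratio of -1.47 (-1.59 to -1.34), and 68.1 in early meiotic cells. In the 11 mitotic cells of ending 2, TET1 was at 46.0, below the premeiotic level of 54.8 in that ending.

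Germline RNA-binding and piRNA genes were largely above the mitotic level. In this list, 14 of 22 genes compared were higher and 2 lower than in mitotic cells (median log2 ratio 1.27), and 10 of 21 were lower and none higher than in early meiotic cells (median -1.26). DDX4, which was part of the criteria of all 3 germ cell groups, is 1 of the 14. MAEL, a piRNA pathway protein, was at 81.6 CPM against 22.1 in mitotic and 170.0 in early meiotic cells, and TDRD1, a Tudor domain scaffold, at 42.9 against 9.05 and 53.5. ASZ1 was at 17.6 against 4.35 and 138. PIWIL4, a nuclear PIWI protein, took the opposite direction, at 0.488 CPM from 7 UMIs against 14.7 in mitotic cells.

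**Figure D4:**
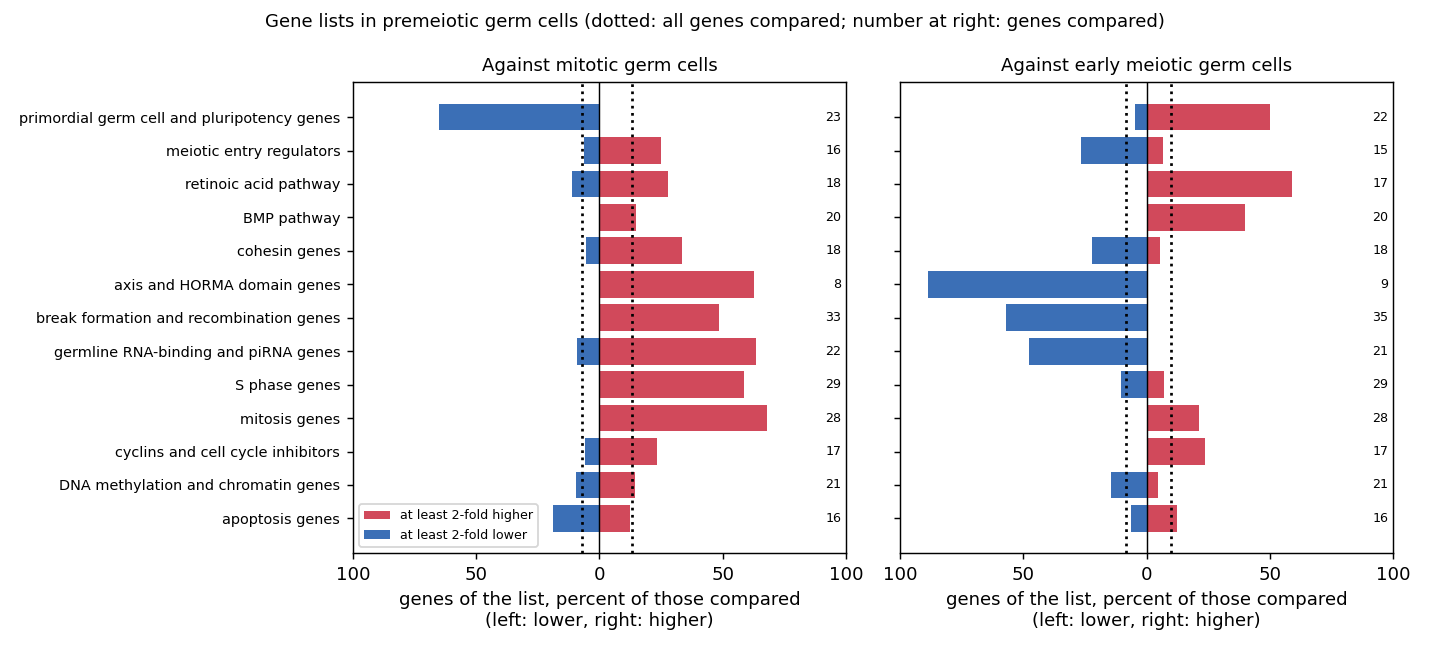
Bars give the percent of compared genes of each list called at least 2-fold higher (right) or lower (left) in premeiotic cells than in mitotic (left panel) and early meiotic cells (right panel), with dotted lines at the shares of all genes. The mitosis and germline RNA lists reach 67.9% and 63.6% on the right of the mitotic panel, beyond the line at 13.4%, and the retinoic acid list reaches 58.8% in the early meiotic panel, beyond the line at 9.78%.

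Oocyte and apoptosis genes showed no common direction. Of 10 oocyte genes compared, 1 was higher and 1 lower than in mitotic cells, and 2 were higher and none lower than in early meiotic cells. FIGLA was 1 of the latter, and its absence was a criterion of that group. NLRP7, a gene of the oocyte cytoplasm, was the exception, at 388 CPM (377 to 398) against 161 and 92.0, log2 ratios of 1.27 (1.17 to 1.37) and 2.08 (1.95 to 2.21). Of 16 apoptosis genes, 2 were higher and 3 lower than in mitotic cells, and 2 were higher and 1 lower than in early meiotic cells. CHEK2, the checkpoint kinase that acts on unrepaired breaks, was at 28.5 against 7.97 and 11.9. Of 13 immediate early and heat shock genes, 1 was higher and 2 lower than in mitotic cells, with a median log2 ratio of -0.81 and 3 ratios above 0. Their summed level was 11311 CPM against 8216 in mitotic and 8299.6 in early meiotic cells. Against mitotic cells the sum thus ran opposite to most genes of the list.

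Genes named by size alone showed what the lists did not hold. Lower than in mitotic cells were ACTG2, a smooth muscle actin, at 1.11 against 149 CPM (log2 ratio -7.06), and GPHA2, a glycoprotein hormone subunit, at 5.01 against 197. HDC, the enzyme that makes histamine, was at 0.348 against 37.1. All 3 were below their levels in cells without DAZL or DDX4, which were 8.15, 8.57 and 0.679 CPM. Higher than in mitotic cells were AGXT at 22.5 CPM against 1 UMI in all mitotic cells (log2 ratio 6.96, interval 4.47 to 12.27, and 5.81 within ending 1, where AGXT was at 10.6) and CALY, a protein that binds the dopamine receptor, at 207 against 9.42. CALY was at 102 and 334 by ending and at 41.6 in early meiotic cells, and its log2 ratio over mitotic cells was 4.46 pooled and 3.61 within ending 1. The homeobox gene HMX3 (18.6 against 1.09, log2 ratio 4.10 pooled and 3.49 within ending 1) was also among the 12 largest ratios.

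Against early meiotic cells, the largest ratios downward belonged to SPO11, RAD51AP2 and PRDM9. SPDYA, an activator of CDK2 at meiotic telomeres, was at 13.02 against 439 CPM, and CNTD1, a crossover factor, at 5.15 against 162. TEX101 was at 0.418 from 6 UMIs against 23.6. In cells without DAZL or DDX4, SPDYA, CNTD1 and TEX101 were at 12.5, 4.21 and 0.704 CPM, so the premeiotic levels were near or below these. Upward, ASB9, a subunit of ubiquitin ligases, was at 169 CPM against 15.01, a log2 ratio of 3.49 (3.18 to 3.82), with 118 and 230.0 by ending. On the cells with at most 10% mitochondrial UMIs its log2 ratio was 5.27. PERP, a desmosome and p53 target gene, was at 21.0 against 2.07, but was higher still in mitotic cells (137).

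At least 2-fold above both groups were 197 of the 12242 genes compared in both. Among the 12 with the highest ratio were IL15, a cytokine, at 20.1 CPM against 1.63 and 1.73, and CRYGC, a crystallin, at 76.0 against 6.34 and 11.04. SYNPR, a synaptic vesicle protein, was at 15.8 against 0.181 and 2.24, and MPZL2, an adhesion protein, at 18.2 against 2.53 and 2.42. IL15 came mostly from ending 2, at 3.70 and 39.7 by ending, and CRYGC (38.3 and 121) and SYNPR (5.88 and 27.7) were also higher there. Since the mitotic cells were almost all of ending 1, the pooled ratios over them mix endings. Within ending 1 the log2 ratio over mitotic cells was 1.12 for IL15 (3.62 pooled), 2.62 for CRYGC (3.58 pooled) and 4.96 for SYNPR (6.45 pooled, from 1 mitotic UMI). MPZL2 was higher in ending 1, at 25.2 and 9.80. ASB9, CALY and CRABP2 were in this set too. In the 11 mitotic cells of ending 2, however, ASB9 was at 125 CPM, against 229.8 in premeiotic cells of that ending (log2 ratio 0.87).

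The HOX genes, which pattern the body axis, were examined after their values had been seen. Of 29 genes compared, 17 were higher and 1 lower than in mitotic cells (median log2 ratio 1.74), and of 32, none was higher and 5 were lower than in early meiotic cells (median 0.59). HOXB5 was at 83.8 CPM (79.1 to 88.7), with 63.0 and 109 by ending, against 6.70 in mitotic and 35.0 in early meiotic cells, and at 2.90 in cells without DAZL or DDX4. HOXB8 was at 33.8 against 1.81 and 16.7, and HOXA3 at 51.9 against 4.71 and 34.5. HOXA10, a posterior gene, was at 42.4 in both premeiotic and mitotic cells, with an interval of the log2 ratio of -0.22 to 0.23, and at 36.9 in early meiotic cells. PAX6, a paired-box factor also picked after its values were seen, was at 158 CPM against 10.5 and 137. By ending it was at 127 and 195 in premeiotic and at 82.9 and 236 in early meiotic cells, so their order reversed in ending 2. In the 11 mitotic cells of ending 2, PAX6 was at 54.3.

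The premeiotic cells differed among themselves along the synaptonemal complex sum, here cut into 4 ranges of 199, 276, 204 and 116 cells. Their median depths were 14037, 16319.5, 14731.5 and 12571 UMIs. The sum was part of the cell criteria and its genes act in the same structures as TEX12 and HORMAD1, so the courses of meiotic genes along it are a description close to the split itself. SMC1B was at 381 CPM below 2 synaptonemal UMIs per 10000, then at 551 and 868, and at 1065 from 10 to 20. It ran from 430.2 to 995 in ending 1 and from 277 to 1142 in ending 2. HORMAD1 went from 52.3 over 77.4 and 118 to 169, TEX12 from 12.6 over 23.0 and 60.0 to 174, and ZCWPW1 from 160.3 over 196 and 259 to 566. The courses of SMC1B, HORMAD1, TEX12 and ZCWPW1 were upward within both endings.

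Courses of the early germline genes differed. DPPA4 was at 80.6, 57.8, 43.6 and 29.1 CPM over the 4 ranges. Within ending 1 it went from 96.0 to 23.5, and within ending 2 from 48.4 (36.1 to 63.4) to 35.3 (23.8 to 50.4), with overlapping intervals. L1TD1 went from 137 to 43.8 in ending 1 and from 79.1 (63.1 to 97.8) to 47.1 (33.6 to 64.1) in ending 2, where the intervals also overlapped. TET1 went from 109.8 to 52.4 in ending 1 and from 80.9 to 40.01 in ending 2. RAD21, the mitotic kleisin, went from 412 to 197, while REC8, a marker gene, went from 84.5 to 222.

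ZGLP1 stayed between 158 and 212 CPM over the 4 ranges and was 177 in the last. MKI67 had different courses by ending, from 413 to 199.8 in ending 1 and from 229 over 233 and 349 to 249.5 in ending 2, so its pooled course of 354, 335, 356 and 223 describes neither. The share of cells with a NANOG UMI was 20.6%, 24.6%, 22.1% and 17.2%.

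**Figure D5:**
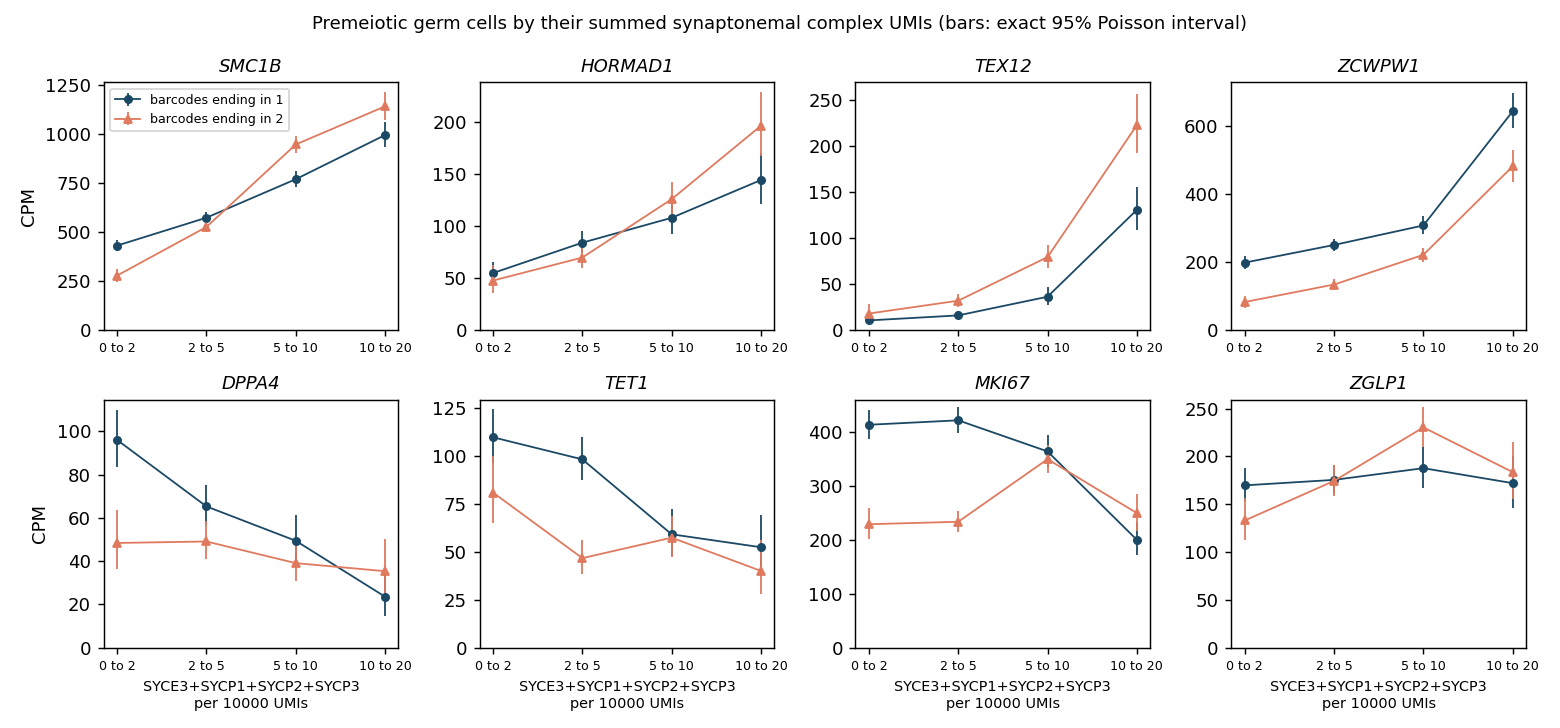
Each panel plots 1 gene in CPM over 4 ranges of the synaptonemal sum per 10000 UMIs in premeiotic cells, for each barcode ending, with exact 95% Poisson intervals as bars. SMC1B, HORMAD1, TEX12 and ZCWPW1 are higher in each successive range in both endings, the first and last intervals of DPPA4 overlap in ending 2 but not in ending 1, and MKI67 differs in course between endings.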

How the data were processed

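Droplet single-cell RNA sequencing was done on whole ovaries of 2 fetuses, with 1 library each. The deposited table gives unnormalized UMI counts for each gene in each cell. Per the submitters' processing notes and the study's methods, the authors made them with Cell Ranger 3.0.2 on the Macaca_fascicularis_5.0 genome and imported them into Seurat. The table held 18446 genes, 3213 of them under Ensembl identifiers. Cells with over 3000 genes are in it, although the methods name that limit, and no doublets or free RNA were removed.

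The cells and the gene lists were chosen with earlier results of these data known. UMIs were summed per group and expressed as CPM, per 1000000 UMIs of the group. Log2 ratios have exact conditional binomial intervals at the 95% level, and a group at 0 is set to a floor of 3 counts. Genes named outside the lists were the 12 largest ratios in each direction and over both groups, with at least 100 UMIs in the higher group, the same direction by 2-fold in each usable ending and no gene of the cell criteria. List members were named by size or known role. A gene may stand in more than 1 list. The interval was tested on simulated data drawn from the counting model it assumes, without spread between cells or endings. That test cannot show how the interval holds under such spread. Cells are not replicates, so no p-value was computed. Python 3.11.15, numpy 2.4.6, scipy 1.17.1, pandas 2.3.3 and matplotlib 3.10.9 were used.

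The alternatives were the gene limit of the methods, at most 10% mitochondrial UMIs, stricter marker criteria, cells with few somatic marker UMIs, each ending alone, means over cells, centring on the median gene, other UMI minimums and a 3-fold limit.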

Additional observations from a re-analysis of the deposited data

How the results depend on the processing

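The number of premeiotic cells was 162 with 200 to 3000 genes per cell, 260 with at most 10% mitochondrial UMIs, 527 with at least 5 UMIs and 3 marker genes, 393 without cells of 5 or more somatic marker UMIs per 10000, and 507 and 288 by ending. The NANOG share was 9.26% under the gene limit, 26.2% under the stricter marker criteria, 14.6% and 34.7% by ending, and 2.27% and 4.31% after thinning to 1000 and 3000 UMIs. Genes lower than in mitotic cells (873) numbered 447 under the gene limit, 472 with at least 100 UMIs, 1370 with no minimum and 383 at 3-fold, where 667 were higher. Against early meiotic cells (1215 higher, 1062 lower), there were 377 and 665 under the gene limit and 329 and 462 at 3-fold, and 1926 and 2052 were higher within each ending alone. The fewer genes and cells of the gene limit and the 3-fold limit follow from their construction. So do the numbers under other UMI minimums, which set the genes compared. A single ending drops the condition on the other ending, which allows more calls. The cause of the remaining differences was not tested. Centring on the median gene moved the share of higher genes among calls from 65.5% to 50.3% against mitotic cells and from 53.4% to 42.9% against early meiotic cells. Of 312 recomputed log2 ratios of 20 genes, all kept their direction, and 101 left the counting interval. The 312 include those under other UMI minimums and the 3-fold limit, which leave a ratio unchanged by construction. Only ratios already called at least 2-fold apart were recomputed. The widest ranges were those of CRABP2 over early meiotic cells (1.36 to 4.79), CALY over mitotic cells (3.61 to 6.45), CRABP2 over mitotic cells (2.49 to 5.40), ASB9 over early meiotic cells (3.001 to 5.27) and MSX1 over mitotic cells (2.76 to 5.02). No value against mitotic cells was had from ending 2 alone, which holds 11 of them. No paired analysis was possible because each stage had 1 library and the cells could not be assigned to a stage. Depth limits the genes near 0, such as SPO11 and PRDM9, and shares of cells with a UMI.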

Other observations

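The premeiotic cells of the barcode endings differed from each other in several named genes, all picked after their values were seen. Of 7877 genes with at least 100 UMIs in premeiotic cells, 256 were at least 2-fold higher in ending 2 and 239 in ending 1. RBP4, the plasma carrier of retinol, was at 39.4 CPM in premeiotic cells of ending 2 and 4.47 in those of ending 1. It was at 75.4 and 5.08 in early meiotic cells but at 1.73 and 1.13 in cells without DAZL or DDX4. COX7B2, a subunit of cytochrome c oxidase, was at 22.1 and 1.02 in premeiotic cells, 15.6 and 4.01 in early meiotic cells and 0.490 and 1.10 in cells without DAZL or DDX4. RBP4 and COX7B2 were thus low in both endings outside recognizable germ cells.

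Other genes differed between endings in cells without DAZL or DDX4 as well. BST2, an interferon-induced membrane protein, was at 131 CPM in ending 2 and 9.20 in ending 1 in premeiotic cells, and at 556 and 44.2 in cells without DAZL or DDX4. MNDA, an interferon-inducible nuclear protein, had no UMI in the 507 premeiotic cells of ending 1 and stood at 32.8 in ending 2, beside 1.06 and 30.9 in cells without DAZL or DDX4. In the opposite direction, SYNC, an intermediate filament protein, was at 57.7 in ending 1 and 7.81 in ending 2, and FAM162B at 37.0 and 2.30. The stage, the fetus and the library cannot be told apart in these differences.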
